A study of Homo sapiens with 132 samples.

Results

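The genes described are the 33 genes of cholesterol and fatty acid synthesis, of its transcriptional control and of sterol transport that a list of symbols named, out of 65217 Ensembl gene identifiers counted in each library. The list was drawn up by function, with earlier results of these data known, and its rule used no measured value. All 33 symbols were found. They comprised 7 genes of the mevalonate pathway, 11 of sterol synthesis from squalene onwards, 5 regulators, 5 genes of sterol transport and 5 of fatty acid synthesis.

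Poly(A) RNA from 4 established lines of gastric carcinoma, MKN1, MKN7, N87 and Hs746T, was sequenced after 4 h or 24 h, with 3 biological replicates in each of 44 conditions and 132 libraries in all. MKN1 and Hs746T (42 libraries each) were left untreated or received 5 ng/ml EGF, 1 µg/ml cetuximab (Cet, an antibody against EGFR), EGF+Cet, 5 µg/ml trastuzumab (Tra, an antibody against HER2), 0.5 µM afatinib (Afa, an irreversible kinase inhibitor of the ERBB receptors) or Tra+Afa. MKN7 and N87 (24 libraries each) received Tra, Afa or Tra+Afa, or were left untreated. All controls used here were untreated cells, so an effect of the solvent of Afa is not separated from that of Afa. Hs746T was kept in DMEM and the other lines in RPMI, both with serum, which can supply cholesterol. Line and medium therefore cannot be told apart for Hs746T.

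Cells make cholesterol from acetyl-CoA through mevalonate, squalene and lanosterol, and fatty acids from the same acetyl-CoA. Both routes are switched on by the transcription factors SREBP1 and SREBP2, the products of SREBF1 and SREBF2, which SCAP escorts out of the endoplasmic reticulum when sterols are scarce and which the INSIG proteins hold back when sterols are plentiful. INSIG1 is itself an SREBP target. ABCA1, ABCG1, MYLIP, SREBF1 and SCD are known targets of the liver X receptors, which respond to oxidised sterols, and a gene can be a target of both. ERBB receptor signalling through PI3K and mTORC1 is known to act on SREBP processing.

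The libraries held 25832557 to 69434151 counts (median 50725775), and the 33 genes took 0.233% to 0.524% of them. Levels are given as CPM, counts scaled to the TMM-adjusted total of each library, in replicates 1, 2 and 3 in this order, and differences as log2 fold changes with their standard errors (SE). A gene was called changed where the adjusted p, from edgeR's quasi-likelihood test with Benjamini-Hochberg adjustment over all genes tested in that comparison, was below 0.05. Libraries with the same replicate number mostly deviated from their group means together, so each comparison was also fitted with this number as a block. The blocked count is given where it differed by more than 1.5 times. Where the share of all genes called with the block is not given, the blocked count cannot be set against a background. All shares of all genes are from TMM scaling, so counts with scaling to library size alone have no background beside them. The response genes of ERBB signalling DUSP6, SPRY4, EGR1, ETV5 and PHLDA1 all fell after 24 h of Afa in MKN1, MKN7 and N87, 5 of 5 in each, and 0 of 5 changed in Hs746T. CDH1, which encodes the epithelial adhesion protein E-cadherin, stood at 276, 247 and 254 CPM in untreated N87 and 254, 285 and 253 CPM in MKN7 at 24 h, but at 3.16, 2.13 and 2.34 CPM in MKN1 and 1.09, 0.693 and 0.750 CPM in Hs746T, so this marker was close to absent in the latter pair. The summed level of 7 epithelial genes, however, was 17017 to 17988 CPM in untreated MKN1, 18701 to 21812 in N87 and 6290.3 to 7367 in MKN7, and 787 to 981 in Hs746T alone was far lower.

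CYP51A1, the lanosterol demethylase, had 21 counts over all 132 libraries and could not be tested. Annotated genes on its own strand overlap it, and its level cannot be read from these counts. The other 32 genes were tested in MKN1, MKN7 and N87, and 31 in Hs746T, where ABCG1, a sterol exporter, was also too low. TM7SF2, a sterol reductase, overlaps VPS51 on the same strand, and HSD17B7, a ketoreductase of the pathway, has a pseudogene, HSD17B7P2, with 35.6% as many counts, so the values of these genes may hold reads of their neighbours. ACAT2, which joins acetyl-CoA units at the start of the pathway, overlaps TCP1 and SOD2 on the opposite strand.

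Promoter sequence was available for 28 of the 33 genes, as RefSeq windows of 250 bases before to 50 bases after the start site (build GRCh38.p14). SREBP proteins bind sterol regulatory elements, classically next to CCAAT boxes bound by NF-Y, and the letters of both were searched on both strands. The classical sterol regulatory element occurred in the promoter of 1 of the 28 genes, SREBF2, and in 0.0586% of all 27305 genes with a window. The looser form TCACNCCAC, which every classical element contains, was likewise found in SREBF2 alone and in 1.39% of all genes. CCAAT was present in 20 of the 28 genes (71.4%) and in 39.7% of all genes, and the E-box CACGTG in 5 of the 28 (17.9%) and in 8.77% of all genes. A match of letters describes the sequence and is no evidence of binding. The stretch around the match in SREBF2 is shown because this regulator differed in direction between lines, and those of MVD, MSMO1, ACLY and SCD because they hold several CCAAT letters each and belong to genes whose changes are described below. Capitals mark the matched letters, CCAAT or its reverse complement ATTGG, and the whole classical element in SREBF2. The SREBF2 stretch, chr22:41832961-41832990 on the plus strand, lies upstream of the RefSeq start site. It falls within an exon annotated in GENCODE v29 that is not of SREBF2, whose annotated span begins at 41833079. The others, MVD at chr16:88663162-88663291 (minus strand), MSMO1 at chr4:165327469-165327618 (plus), ACLY at chr17:41919023-41919162 (minus) and SCD at chr10:100346983-100347122 (plus), hold no annotated exon bases.
SREBF2: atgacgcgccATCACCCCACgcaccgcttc
MVD: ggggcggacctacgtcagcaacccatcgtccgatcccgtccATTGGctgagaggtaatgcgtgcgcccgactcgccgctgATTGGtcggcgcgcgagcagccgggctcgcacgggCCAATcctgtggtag
MSMO1: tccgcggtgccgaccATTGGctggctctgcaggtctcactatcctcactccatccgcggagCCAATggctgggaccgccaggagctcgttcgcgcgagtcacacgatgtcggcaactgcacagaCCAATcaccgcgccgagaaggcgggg
ACLY: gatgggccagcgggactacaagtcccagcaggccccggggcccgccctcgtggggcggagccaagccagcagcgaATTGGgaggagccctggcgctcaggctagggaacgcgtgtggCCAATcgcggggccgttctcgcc
SCD: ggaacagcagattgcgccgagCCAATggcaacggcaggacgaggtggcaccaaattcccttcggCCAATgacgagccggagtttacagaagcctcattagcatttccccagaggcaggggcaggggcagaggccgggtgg

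Untreated cells of the 4 lines differed widely in these genes at 24 h. Per kilobase of annotated exon, the highest levels were those of ACLY, which makes cytosolic acetyl-CoA from citrate, in N87 (176 ± 11.8 CPM per kb, SD, n = 3) and MKN1 (70.3 ± 8.15), of DHCR7, the reductase of the last step to cholesterol on one branch, in MKN7 (95.5 ± 8.34) and of SCD, the desaturase that makes oleate, in Hs746T (72.5 ± 15.1). In Hs746T, ACLY at 67.3 ± 3.45 and FASN, the fatty acid synthase, at 64.8 ± 1.89 lay within the spread of SCD. N87 stood above all other lines for SREBF2, with 462, 449.6 and 452 CPM against 249, 240.2 and 199.6 in MKN7, 101, 95.04 and 97.8 in Hs746T and 86.3, 64.8 and 78.6 in MKN1, and the libraries of N87, MKN7 and Hs746T did not overlap. FDFT1, the squalene synthase, showed the same leader, with 378, 329.6 and 329 CPM in N87, 76.7, 71.9 and 78.2 in MKN7, 67.8, 62.97 and 59.9 in MKN1 and 48.99, 48.2 and 50.9 in Hs746T. Between N87 and MKN1 the log2 difference of FDFT1, MKN1 minus N87, was -2.44 ± 0.10 (SE, edgeR adjusted p = 1.09e-39), and that of SREBF2 was -2.57 ± 0.10 (SE, edgeR adjusted p = 3.17e-42). The sterol exporter ABCA1 was highest where SREBF2 was lowest, with 74.6, 49.3 and 86.4 CPM in MKN1 and 37.5, 59.6 and 40.8 in Hs746T against 4.09, 3.67 and 4.34 in MKN7 and 1.46, 1.73 and 1.48 in N87, and the libraries of MKN1 and Hs746T overlapped. Not every gene separated the lines. INSIG1 was at 33.2, 22.1 and 19.7 CPM in MKN1 and 28.2, 23.9 and 23.7 in N87, a log2 difference of -0.015 ± 0.14 (SE, edgeR adjusted p = 0.936), while MKN7 (57.4, 54.8 and 56.95) and Hs746T (66.9, 82.8 and 84.3) were higher. The difference in SCD between MKN1 and MKN7 was -0.0051 ± 0.17 (SE, edgeR adjusted p = 0.987), and that in FASN between MKN7 and Hs746T was -0.14 ± 0.14 (SE, edgeR adjusted p = 0.39).

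Across all pairs of untreated lines, most genes of the set differed, as did most of all genes tested. In MKN1 against N87, 5 of 32 were higher and 20 lower, beside 68% of all 22832 genes called in either direction, and in MKN1 against MKN7, 6 were higher and 19 lower, beside 64.5%. MKN1 and Hs746T differed in 11 genes upward and 12 downward, beside 68.6%. MKN7 had 9 higher and 15 lower than N87 (65.6% of all genes) and 18 higher and 9 lower than Hs746T (66.6%), and N87 had 19 higher and 8 lower than Hs746T (68.4%). The shares of the set, 23 to 27 of 32, were near or somewhat above these backgrounds.

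**Figure D1:**
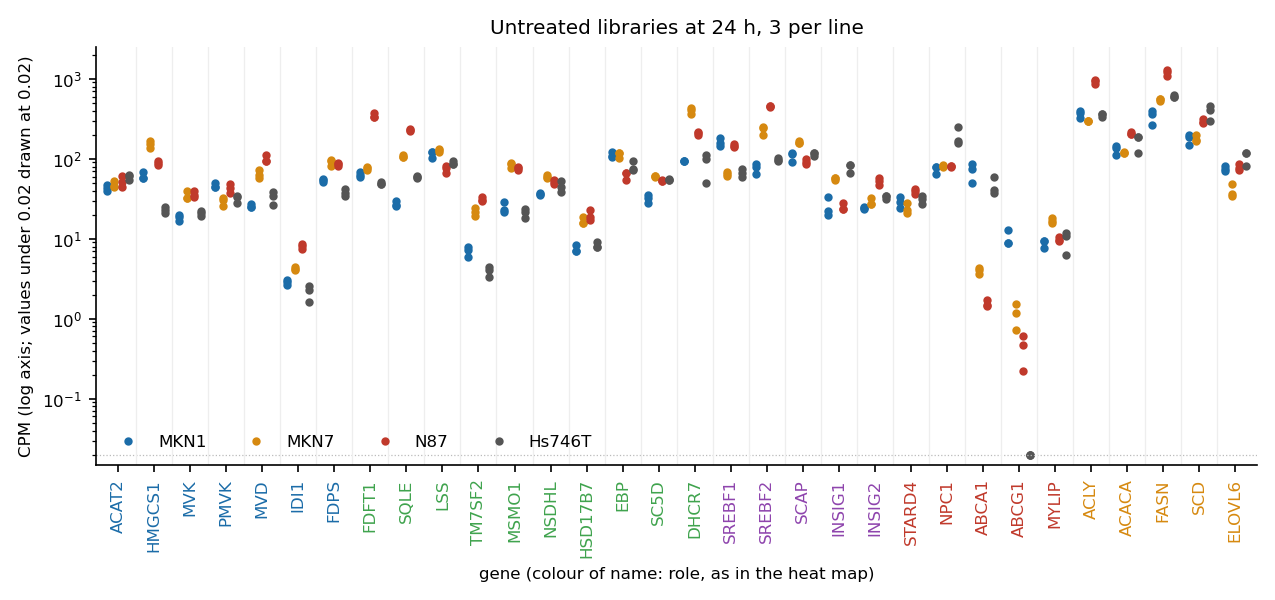
Level of each gene (CPM, log axis) in the 3 untreated libraries of each of the 4 lines at 24 h. CYP51A1 is left out. Points are single libraries, those at the dotted line being ABCG1 in Hs746T. N87 holds the highest SREBF2 and FDFT1 values while MKN1 and Hs746T hold the highest ABCA1 values.

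Afatinib changed these genes most widely in N87. After 24 h, 23 of the 32 genes tested fell and 4 rose. Of all 19078 genes tested, 62.5% were called, 31.5% higher and 31% lower, so the count of changed genes was above the background share and its lean downward was not shared by all genes. The median log2 fold change was -0.48 over the set and 0.032 over all genes. All 5 fatty acid synthesis genes, 6 of 7 mevalonate genes, 6 of 10 sterol genes, 4 of 5 regulators and 2 of 5 transport genes fell, and 1 sterol gene and 3 transport genes rose. Called changes above 1 on the log2 scale, in either direction, were found for 12 genes, beside 29.6% of all genes. With scaling to library size alone, the median log2 value of all genes shifted upward by 0.26, and 16 genes of the set fell and 6 rose. The share of all genes with this scaling is not given, so these counts have no background.

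**Figure D2:**
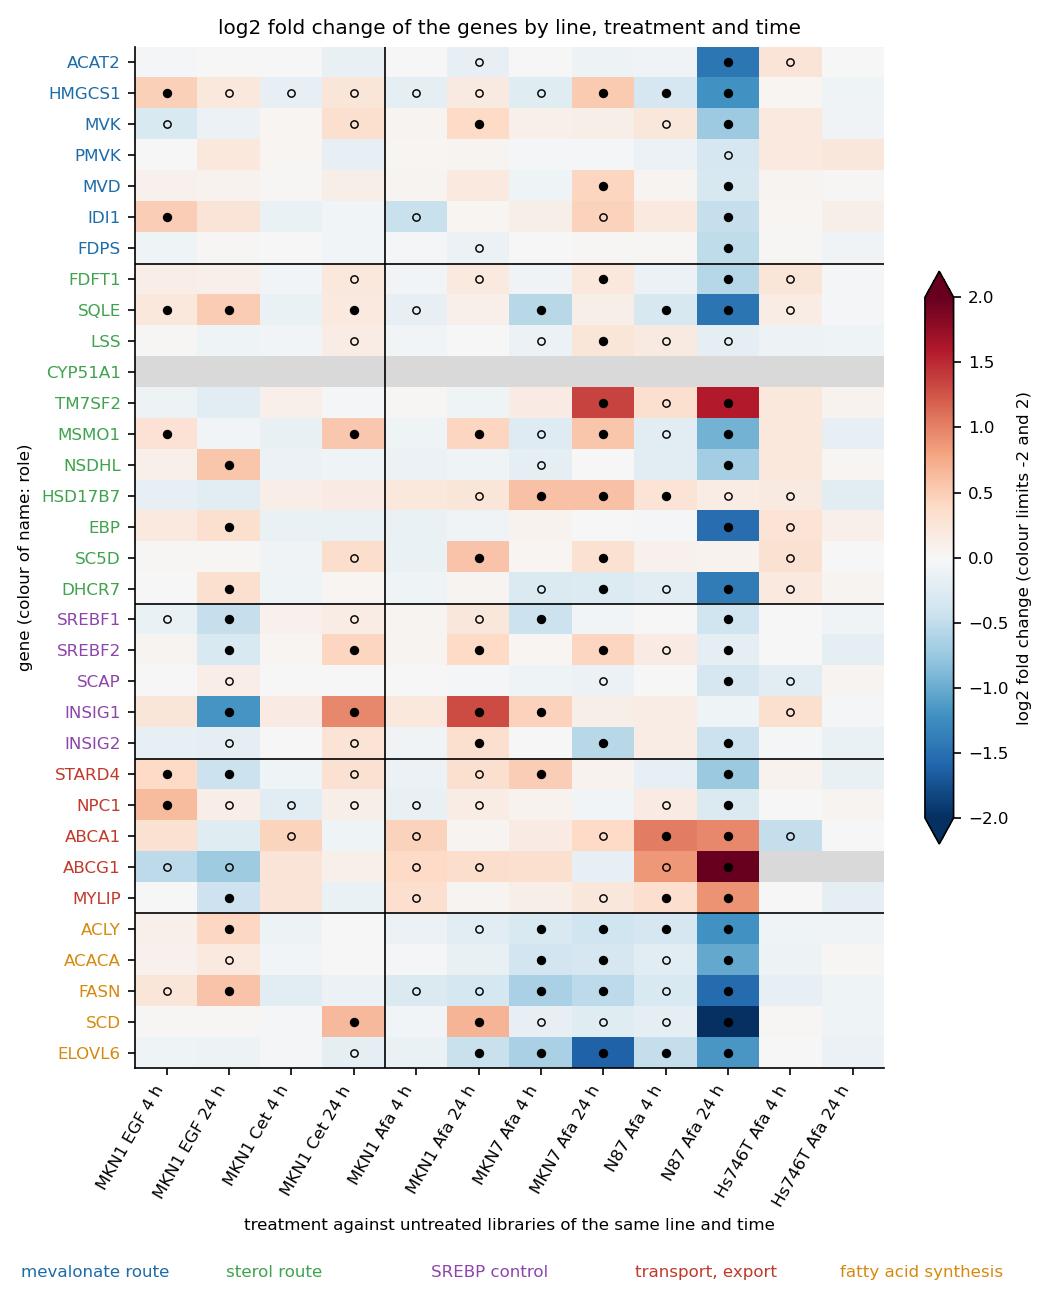
Log2 fold change of the 33 genes (rows, coloured by role) in 12 comparisons with untreated cells of the same line and time. Blue is lower and red is higher. Black dots mark an edgeR adjusted p below 0.05, open circles mark calls made only with the replicate block, and grey cells were not tested. N87 with Afa at 24 h holds the most dots, and the Hs746T columns hold no black dot.

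The largest decreases in N87, those of SCD and FASN, were in fatty acid synthesis. SCD (GRCh38, chr10:100347124-100364834) stood at 292, 317 and 279.8 CPM in untreated N87 libraries and at 60.7, 70.8 and 63.5 CPM with Afa. All treated libraries were thus far below the lowest untreated one. This was a log2 fold change of -2.22 ± 0.13 (SE, edgeR adjusted p = 3.15e-12), or 0.215 of the untreated level. FASN (chr17:82078333-82098332), the synthase that builds palmitate, went from 1071, 1302 and 1214 to 414, 438 and 409 CPM, a change of -1.54 ± 0.13 (SE, edgeR adjusted p = 7.96e-10). Its 3 treated libraries lay closely together. ACLY fell from 853, 927 and 976 to 399, 415 and 402 CPM (log2 -1.21 ± 0.09), and the elongase ELOVL6, which extends palmitate, from 84.9, 76.2 and 71.7 to 36.6, 33.9 and 36.2 CPM (log2 -1.16 ± 0.11). ACACA, the carboxylase that commits acetyl-CoA to fatty acids, fell by 1.02 on the log2 scale (edgeR adjusted p = 2.75e-08).

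Among the mevalonate genes, ACAT2 went from 60.1, 43.95 and 51.9 to 19.8, 17.2 and 21.4 CPM (log2 -1.45 ± 0.13, edgeR adjusted p = 5.03e-09), and HMGCS1, the cytosolic synthase of the following step, from 92.9, 82.6 and 87.4 to 37.7, 36.3 and 42.1 CPM (log2 -1.21 ± 0.09, edgeR adjusted p = 3.99e-10). The highest treated library of each was below its lowest untreated library. The kinase MVK changed by -0.73, the farnesyl diphosphate synthase FDPS by -0.50, the isomerase IDI1 by -0.45 and the decarboxylase MVD by -0.33 on the log2 scale, all called, although IDI1 and MVD lost their calls without replicate 2. PMVK, a further kinase of the route, had a log2 value of -0.33 ± 0.16 (SE, edgeR adjusted p = 0.0704) and passed only with the replicate block (adjusted p = 0.0123).

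In sterol synthesis, SQLE, the squalene epoxidase and a rate-controlling enzyme, went from 238, 232 and 222 to 83.5, 82.2 and 90.02 CPM (log2 -1.47 ± 0.08, edgeR adjusted p = 2.42e-12). The sterol isomerase EBP went from 66.4, 53.8 and 65.7 to 21.6, 18.4 and 25.9 CPM (log2 -1.53 ± 0.17) and DHCR7 from 213, 198 and 211 to 81.5, 72.5 and 87.2 CPM (log2 -1.40 ± 0.08). These were the largest decreases of the sterol branch, and in each the groups lay far apart. The methylsterol oxidase MSMO1 fell by 0.94, the dehydrogenase NSDHL by 0.69 and FDFT1 by 0.57 on the log2 scale. TM7SF2 moved the other way, from 33.04, 29.4 and 30.1 to 87.3, 91.3 and 104 CPM (log2 1.58 ± 0.11, edgeR adjusted p = 1.24e-10), with the caveat of the overlapping VPS51. The desaturase SC5D was at 0.067 and not called. The lanosterol synthase LSS (log2 -0.18) and HSD17B7 (log2 0.15) were called only with the replicate block, with adjusted p of 0.00968 and 0.0493.

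None of the 5 regulators changed by more than 0.43 on the log2 scale. SREBF1 (chr17:17810399-17837002) went from 155, 144 and 142 to 112, 114 and 116 CPM, a change of -0.40 ± 0.07 (SE, edgeR adjusted p = 1.96e-05), and INSIG2 and SCAP fell by 0.43 and 0.33, SCAP losing its call without replicate 2. SREBF2 (chr22:41833079-41907308) went from 462, 449.6 and 452 to 414, 401 and 408 CPM, a change of -0.19 ± 0.08 (SE, edgeR adjusted p = 0.0469). The 2 groups did not overlap, but the call was lost when any 1 of the 3 replicates was left out and the sign turned (0.072) with scaling to library size alone. INSIG1 (chr7:155297776-155310235), an SREBP target, was at 28.2, 23.9 and 23.7 CPM untreated and 25.7, 22.4 and 24.7 CPM with Afa, overlapping groups with a change of -0.09 ± 0.12 (SE, edgeR adjusted p = 0.517). It was the only regulator of the 5 that was not called in this comparison.

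Of the transport genes, 3 rose. ABCG1 (chr21:42199689-42297244) went from 0.603, 0.463 and 0.221 to 5.36, 7.76 and 4.36 CPM, 13.1-fold and 3.71 ± 0.37 (SE, edgeR adjusted p = 1.45e-08) on the log2 scale, from a low start. ABCA1 went from 1.46, 1.73 and 1.48 to 3.37, 3.29 and 2.61 CPM (log2 0.96 ± 0.35, edgeR adjusted p = 0.0214), and its call was lost without replicate 1 or replicate 2. MYLIP, a ubiquitin ligase that removes lipoprotein receptors from the cell surface, rose by 0.90 ± 0.09. All 3 are known targets of the liver X receptors, as are SREBF1 and SCD, which fell. The sterol carrier STARD4 (log2 -0.75 ± 0.16) and NPC1, which moves cholesterol out of lysosomes (log2 -0.29 ± 0.10), fell, and NPC1 lost its call without replicate 1 or replicate 2. Other cell properties moved in the same libraries. The summed level of 6 proliferation genes (MKI67, TOP2A, MCM2, MCM5, PCNA, CCNB1), all 6 of which fell, ranged over 2636 to 2987 CPM in untreated libraries and 889.6 to 1062 CPM with Afa. That of 7 epithelial genes, of which 3 fell and 1 rose, ranged over 18701 to 21812 and 10652 to 13027 CPM. The part of either in the results was not tested. In bulk RNA, fewer cells with a transcript and less of it in each cell cannot be told apart.

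**Figure D3:**
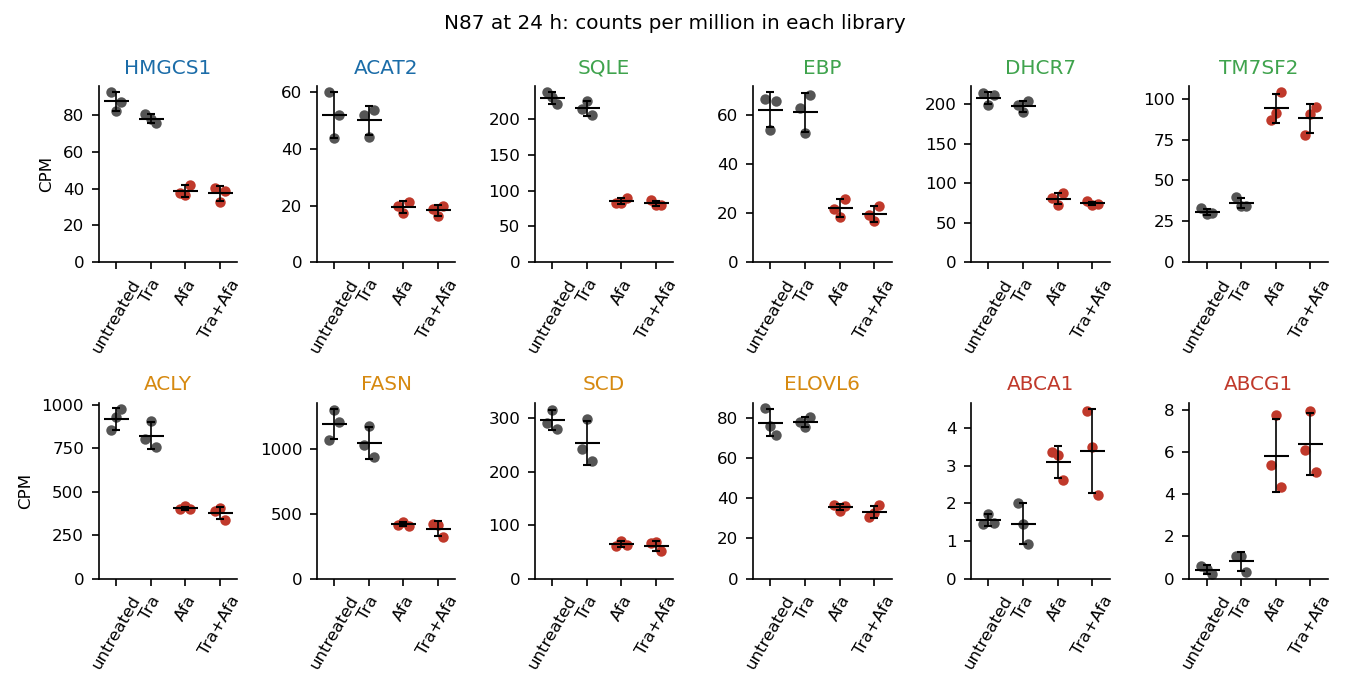
CPM of 12 genes in each of the 3 N87 libraries that were untreated or received Tra, Afa or Tra+Afa for 24 h. Each panel has its own axis, and bars give the mean ± SD. Tra libraries lie near the untreated ones and Tra+Afa libraries near the Afa ones, and ABCG1 and TM7SF2 are higher with Afa.

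The antibody trastuzumab was compared with afatinib in the same line. With Tra alone for 24 h in N87, 0 of 32 genes were called by edgeR, beside 0% of all genes, or by DESeq2, and 1 gene had an unadjusted p below 0.05. SCD was at 242, 299 and 220.2 CPM with Tra and the log2 values ran from -0.24 (SCD) to 0.92 (ABCG1). Tra+Afa against untreated cells gave 24 lower and 4 higher, beside 64.7% of all genes. With Tra+Afa, SCD stood at 65.9, 67.7 and 51.2 CPM and FASN at 425, 412 and 323 CPM, within or close to the ranges with Afa alone. Tra+Afa against Afa gave 0 calls among these genes in every line and at both times by edgeR, beside 0% of all genes in each of the 8 comparisons, also with the replicate block. In N87 at 24 h the log2 differences ran from -0.18 (PMVK) to 0.13 (ABCA1), with a median SE of 0.102, and 0 genes had an unadjusted p below 0.05. Differences well above these errors could also have been missed, as ABCG1 with Tra at 24 h, at 0.92 ± 0.39 (SE), was not called.

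At 4 h the response of N87 was smaller. Of 32 genes, 3 were higher and 4 lower, beside 18.2% of all genes (9.06% higher, 9.1% lower), and with the replicate block 9 were higher and 9 lower, beside 33%. With scaling to library size alone 5 were higher and 2 lower. Only 1 call was left without replicate 1 or without replicate 2, and 1 called gene changed by more than 1 on the log2 scale, beside 3.24%. ELOVL6 (log2 -0.48 ± 0.11, edgeR adjusted p = 0.0027), HMGCS1 (log2 -0.34), ACLY (log2 -0.33) and SQLE (log2 -0.31) were lower at 4 h, and ABCA1 (log2 1.03 ± 0.35, edgeR adjusted p = 0.0437), MYLIP (log2 0.34) and HSD17B7 (log2 0.28) were higher. The calls of HMGCS1, HSD17B7 and MYLIP were lost whichever replicate was left out. Those of ACLY and ABCA1 were lost without replicate 1 or 2, that of ELOVL6 without replicate 1 and that of SQLE without replicate 2. SREBF1 was at 125, 147 and 142 CPM untreated and 129, 142 and 142 CPM with Afa, a change of -0.0024 ± 0.07 (SE, edgeR adjusted p = 0.989). SCD had 229, 247 and 207 CPM untreated and 189, 218 and 189 CPM with Afa at 4 h, a change of -0.19 ± 0.12 (SE, edgeR adjusted p = 0.327) that was called only with the block (adjusted p = 0.0261). The difference between the 24 h and 4 h effects was itself called for 25 genes, 22 of them lower at 24 h, beside 35.8% of all genes. For SCD it was -2.03 ± 0.17 (SE, edgeR adjusted p = 1.39e-08).

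In MKN7 the same dose of Afa raised some genes of the set and lowered others. After 24 h, 9 genes rose and 6 fell of 32, beside 51.6% of all 18483 genes, 26.6% higher and 25% lower, so the share of called genes was no larger than the background. With scaling to library size alone, 14 rose and 5 fell, at a shift of 0.11 at the median gene. Of the fatty acid genes 4 of 5 fell. Of the sterol genes 6 of 10 rose and 1 fell, and of the mevalonate genes 2 of 7 rose. Of the called genes 2 changed by more than 1 on the log2 scale, beside 13.5% of all genes. ELOVL6 (chr4:110045846-110199199) went from 36.4, 33.9 and 48.01 to 12.1, 12.9 and 13.9 CPM (log2 -1.61 ± 0.14, edgeR adjusted p = 1.44e-08), the largest decrease of the set in this line. FASN went from 561, 529.7 and 563 to 413, 347 and 401 CPM (log2 -0.52 ± 0.09, edgeR adjusted p = 4.19e-05), ACLY fell by 0.40 and ACACA by 0.34 on the log2 scale. SCD, the gene with the largest decrease in N87, was at 172, 197 and 168 CPM untreated and 160.0, 145 and 151 CPM with Afa, -0.24 ± 0.15 (SE, edgeR adjusted p = 0.2), and was called lower only with the block (adjusted p = 0.000709).

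HMGCS1 rose in MKN7, from 155, 165 and 136 to 216, 209.9 and 236 CPM (log2 0.53 ± 0.11, edgeR adjusted p = 0.000415), and MSMO1 from 89.2, 84.8 and 75.8 to 128, 113 and 127 CPM (log2 0.55 ± 0.12, edgeR adjusted p = 0.000459). Every treated library of both genes was above every untreated one. TM7SF2 went from 24.4, 21.6 and 19.5 to 56.7, 52.4 and 58.5 CPM (log2 1.35 ± 0.10) and HSD17B7 from 18.5, 15.9 and 15.6 to 25.5, 24.3 and 25.9 CPM (log2 0.59 ± 0.10). MVD (log2 0.42), SC5D (log2 0.31), LSS (log2 0.24) and FDFT1 (log2 0.21) also rose, and DHCR7 (log2 -0.27) fell. The call of DHCR7 was lost without any 1 of the 3 replicates, and those of FDFT1 and LSS without replicate 1 or replicate 3. SREBF2 went from 249, 240.2 and 199.6 to 335, 306 and 294 CPM (log2 0.43 ± 0.10, edgeR adjusted p = 0.00118). SREBF1 at 64.99, 61.03 and 67.5 against 66.5, 55.9 and 65.4 CPM and INSIG1 at 57.4, 54.8 and 56.95 against 58.9, 50.8 and 73.6 CPM overlapped, and neither was called (log2 -0.05 and 0.11). INSIG2 fell by 0.55 on the log2 scale, a call lost without replicate 3. The 6 proliferation genes all fell in MKN7 too, with a summed 2881 to 3031 CPM in untreated libraries and 1661 to 1780.1 CPM with Afa. Of 7 epithelial genes 5 fell, with a summed 6290.3 to 7367 CPM in untreated libraries and 4621 to 5459.5 CPM with Afa. The part of either in the changes was not tested.

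At 4 h, 3 genes were higher and 6 lower in MKN7, beside 22.2% of all genes (10.1% higher, 12.1% lower), and 3 were higher and 12 lower with the block, beside 38.4%. Of the 6 lower genes 4 again belonged to fatty acid synthesis, with FASN going from 586, 656 and 684 to 436, 444 and 381 CPM (log2 -0.65 ± 0.09, edgeR adjusted p = 1.14e-05) and ELOVL6 from 37.1, 35.9 and 38.05 to 24.9, 22.4 and 25.9 CPM (log2 -0.64 ± 0.14). SQLE went from 97.97, 107 and 98.6 to 68.2, 77.2 and 68.04 CPM (log2 -0.55 ± 0.08) and SREBF1 from 63.8, 66.4 and 73.2 to 52.5, 50.1 and 52.5 CPM (log2 -0.43 ± 0.08, edgeR adjusted p = 0.000297). INSIG1 was higher at this time, 46.9, 51.2 and 41.7 against 61.6, 70.2 and 65.6 CPM (log2 0.46 ± 0.13, edgeR adjusted p = 0.0137), as were HSD17B7 (log2 0.59) and STARD4 (log2 0.50). The calls of INSIG1 and STARD4 were lost without replicate 1. At 4 h 0 called genes changed by more than 1 on the log2 scale, beside 3.4%. SQLE and SREBF1 were lower at 4 h but not called at 24 h (log2 0.11 and -0.05). The 24 h minus 4 h difference was 0.66 ± 0.11 (SE, edgeR adjusted p = 0.000197) for SQLE and 0.38 ± 0.11 (SE, edgeR adjusted p = 0.0178) for SREBF1, and it was called for 9 genes of the set beside 18% of all genes, and for 14 with the block.

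**Figure D4:**
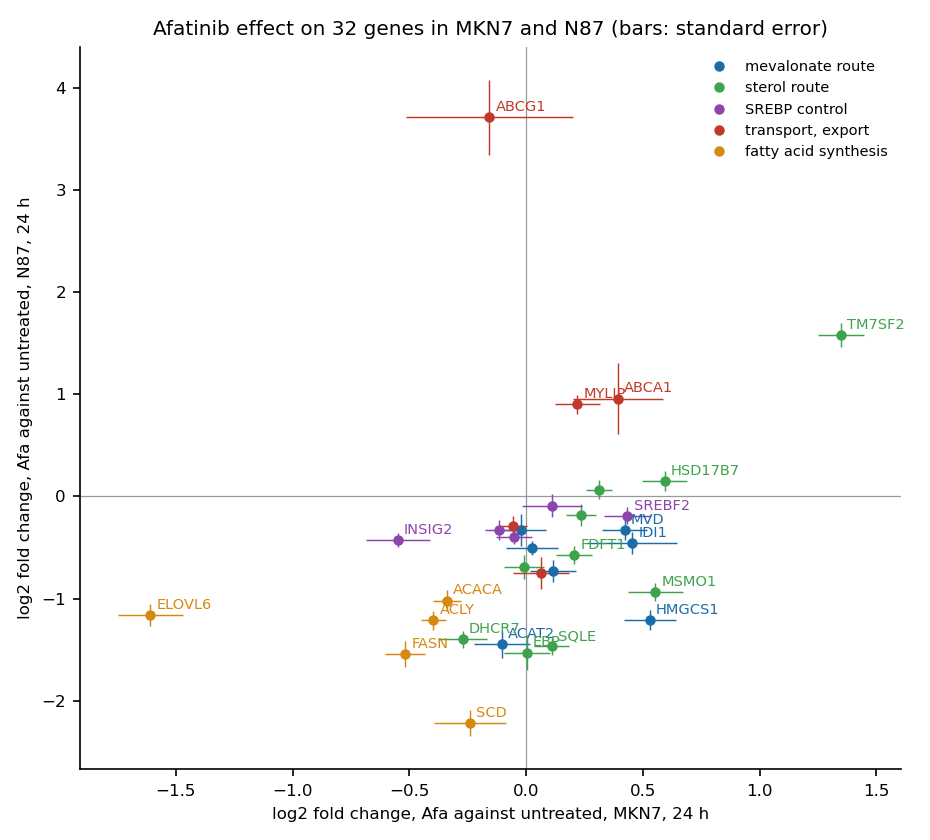
Log2 fold change with Afa at 24 h in N87 (vertical axis) against MKN7 (horizontal axis) for the 32 genes tested, with SE bars. ELOVL6 is low and TM7SF2 high in both lines, while HMGCS1 and MSMO1 lie at positive values in MKN7 and negative values in N87.

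The difference between the Afa effects of the lines was tested directly, in a fit over all 4 lines with untreated cells of each line as its own control. MKN7 and N87 differed for 19 genes, 17 of them in the direction of a higher value in MKN7, beside 21.4% of all 22832 genes. HMGCS1 rose in MKN7 and fell in N87, a difference (MKN7 minus N87) of 1.71 ± 0.15 (SE, edgeR adjusted p = 6.12e-17). MSMO1 did the same (log2 1.47 ± 0.18, edgeR adjusted p = 6.98e-11), as did SREBF2 (log2 0.60 ± 0.13, edgeR adjusted p = 0.00026), FDFT1 (log2 0.75 ± 0.14) and MVD (log2 0.72 ± 0.17). For ELOVL6 the difference was -0.48 ± 0.25 (SE, edgeR adjusted p = 0.175) and for TM7SF2 it was -0.26 ± 0.20 (SE, edgeR adjusted p = 0.408), and neither was called. Between MKN1 and N87, 25 genes differed, 22 with the higher value in MKN1, beside 28% of all genes. ABCG1 had the largest difference in size for this pair (log2 -3.38 ± 0.51, edgeR adjusted p = 6.65e-08) and for MKN7 minus N87 (log2 -3.89 ± 0.56, edgeR adjusted p = 1.97e-08), being called higher in N87 alone, or with the block in N87 and MKN1. SCD rose in MKN1 and fell in N87, with a difference of 2.88 ± 0.25 (SE, edgeR adjusted p = 6.00e-17), and MVK (log2 1.11 ± 0.18), MSMO1 (log2 1.35 ± 0.18), INSIG2 (log2 0.73 ± 0.15) and SREBF2 (log2 0.58 ± 0.13) were also called in opposite directions. MKN1 and MKN7 differed for 5 genes beside 7.61% of all genes, and for 13 genes with the block. INSIG2 was higher with Afa in MKN1 and lower in MKN7 (log2 0.88 ± 0.15, edgeR adjusted p = 1.57e-05). Against Hs746T, 20 genes differed in N87, 7 in MKN7 and 4 in MKN1, beside 35.1%, 18.8% and 4.41% of all genes. With the block 16 differed in MKN7 and 13 in MKN1. All these shares of all genes are without the block. ELOVL6 was the only gene of the set called in the same direction, lower, in all of MKN1, MKN7 and N87 at 24 h. Across these lines 8 genes were called higher in 1 line and lower in another, and PMVK was called in none of them. Part of the opposite calls were lost when 1 replicate was left out, as given with each line.

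In MKN1 the largest changes of the set at 24 h were those of INSIG1, which holds SREBP proteins back. EGF, Cet and Afa were each compared with the same untreated libraries, so these comparisons are not independent and their values are set side by side. After 24 h of Afa, 7 genes rose and 1 fell, beside 25.6% of all 19815 genes (12.2% higher, 13.3% lower), so the share called was about that of all genes. With the block 14 rose and 5 fell, beside 42.2%, with scaling to library size alone 13 rose and 1 fell, and without replicate 3 only 4 genes were called. After 24 h of Cet, 5 rose and 0 fell, beside 10.8% of all genes (4.92% higher, 5.91% lower), with 14 and 1 under the block (30.4% of all genes), 9 and 0 with library size alone, and 1 gene, INSIG1, without replicate 3. After 24 h of EGF, 6 rose and 5 fell, beside 35.8% (17.3% higher, 18.5% lower), with 10 and 7 under the block (51.1% of all genes), and 7 genes were called without replicate 1. With library size alone 2 rose and 13 fell, at a shift of -0.20 at the median gene, so the direction of this count rests on the scaling. Called changes above 1 on the log2 scale were found for 1 gene with Afa (beside 4.19%), 1 with EGF (beside 8.36%) and 0 with Cet (beside 1.33%).

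INSIG1 had the largest change under all of these treatments. Untreated libraries at 24 h held 33.2, 22.1 and 19.7 CPM, and Afa libraries 60.3, 62.1 and 65.2, Cet libraries 48.99, 46.04 and 52.2 and EGF libraries 11.3, 11.6 and 9.53. EGF libraries were thus all below, and Afa and Cet libraries all above, the untreated ones. The log2 fold changes were 1.31 ± 0.13 (SE, edgeR adjusted p = 3.16e-08) with Afa, 0.96 ± 0.13 (SE, edgeR adjusted p = 2.93e-05) with Cet and -1.19 ± 0.14 (SE, edgeR adjusted p = 3.75e-08) with EGF. With EGF+Cet, INSIG1 was at 11.9, 11.8 and 11.8 CPM, like EGF alone, and its log2 difference from EGF was 0.11 ± 0.14 (SE, edgeR adjusted p = 0.867). With Tra it was at 30.6, 26.2 and 19.8 CPM, overlapping the untreated libraries, and with Tra+Afa at 60.2, 64.6 and 68.4 CPM. At 4 h INSIG1 stood at 14.2, 13.6 and 11.8 CPM untreated, 15.8, 14.6 and 15.9 with Afa and 17.03, 16.1 and 13.6 with EGF, and was called with neither.

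SREBF2 at 24 h was at 86.3, 64.8 and 78.6 CPM untreated, 110.2, 94.1 and 103 with Afa, 111, 97.8 and 106 with Cet and 64.4, 55.9 and 62.3 with EGF, log2 changes of 0.41 ± 0.11 (SE, edgeR adjusted p = 0.0047), 0.44 ± 0.11 (SE, edgeR adjusted p = 0.0071) and -0.31 ± 0.11 (SE, edgeR adjusted p = 0.022). It rose with both inhibitors and fell with EGF, and the calls with Afa, Cet and EGF were each lost without replicate 3, that with EGF also without replicate 1. SREBF1 was at 158, 143 and 180.1 CPM untreated and 122, 96.4 and 128 with EGF (log2 -0.46 ± 0.10, edgeR adjusted p = 0.000385), whereas with Afa (188, 171 and 211 CPM, log2 0.23) and Cet (log2 0.15) it passed only with the block. SCD was at 199.8, 150.2 and 185 CPM untreated, 286, 248 and 329 with Afa and 269.9, 253 and 328 with Cet, above all untreated libraries in each case (log2 0.67 ± 0.15, edgeR adjusted p = 0.000977 and log2 0.65 ± 0.15, edgeR adjusted p = 0.00428). Both calls were lost without replicate 3. With EGF its level of 193, 164 and 178 CPM overlapped the untreated libraries (log2 0.018).

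MSMO1 rose with Afa, from 28.9, 21.7 and 22.9 to 34.5, 31.6 and 33.95 CPM (log2 0.43 ± 0.09), and with Cet, to 36.96, 33.6 and 37.6 CPM (log2 0.54 ± 0.09). SC5D (log2 0.57 ± 0.12), MVK (log2 0.40 ± 0.13) and INSIG2 (log2 0.31 ± 0.11) rose with Afa, and SQLE (log2 0.20 ± 0.06) rose with Cet. The calls of MVK, INSIG2 and, for Cet, SQLE were lost without any 1 of the 3 replicates, and that of MSMO1 with Cet without replicate 3. ELOVL6 fell with Afa, from 74.2, 69.8 and 82.1 to 57.6, 56.9 and 53.8 CPM (log2 -0.44 ± 0.10, edgeR adjusted p = 0.00109), a call lost without replicate 3. Of the 6 proliferation genes 5 fell with Afa in MKN1, with a summed 2225 to 2642 CPM in untreated libraries and 1494 to 1940.3 CPM with Afa. Of 3 fibroblast genes tested 2 rose with Afa and 2 with Cet and 2 fell with EGF at 24 h, their summed level being 72.8 to 158 CPM untreated, 301 to 306 with Afa, 239 to 324 with Cet and 27.5 to 31.5 with EGF. With EGF, 3 of 7 epithelial genes fell and 1 rose, and 2 of 4 mesenchymal genes rose. The part of these in the changes was not tested. The 6 genes called higher with EGF at 24 h all code for enzymes, a share near the 17.3% of all genes called higher. With library size alone 2 genes rose and 13 fell. SQLE went from 29.3, 25.8 and 26.8 to 41.2, 36.9 and 37.00 CPM (log2 0.51 ± 0.06, edgeR adjusted p = 1.75e-07), NSDHL from 35.9, 37.7 and 35.4 to 49.3, 63.6 and 44.6 CPM (log2 0.55 ± 0.12) and FASN from 363, 266 and 401 to 589, 421 and 507 CPM (log2 0.58 ± 0.18). ACLY (log2 0.42), EBP (log2 0.33) and DHCR7 (log2 0.32) also rose, and STARD4 (log2 -0.42) and MYLIP (log2 -0.41) fell. The call of EBP was lost without replicate 1 or 3, that of DHCR7 without replicate 1 or 2, that of STARD4 without replicate 1, those of ACLY and MYLIP without replicate 2 and that of FASN without replicate 3.

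At 4 h EGF raised 6 genes and lowered 0 in MKN1, beside 6.82% of all genes (4.37% higher, 2.45% lower), and 7 rose and 3 fell with the block, beside 17%. With library size alone 2 rose and 1 fell, and 0 genes were called without replicate 1, 3 without replicate 2 and 3 without replicate 3. A called change above 1 on the log2 scale was found for 0 genes, beside 1.48% of all genes. NPC1 was at 81.6, 77.3 and 92.3 CPM untreated and 131, 119 and 137 with EGF (log2 0.63 ± 0.10, edgeR adjusted p = 3.11e-05), and HMGCS1 at 78.8, 81.2 and 65.4 and 106, 113 and 91.6 CPM (log2 0.47 ± 0.10, edgeR adjusted p = 0.00207). For both, all EGF libraries were above all untreated ones. IDI1 (log2 0.49), STARD4 (log2 0.40), MSMO1 (log2 0.29) and SQLE (log2 0.22) also rose. Cet and Afa at 4 h gave 0 calls by edgeR (3 genes each at an unadjusted p below 0.05), beside 1.43% and 3.68% of all genes. With the block, 3 genes were called with Cet and 8 with Afa, 3 higher and 5 lower, beside 7.5% and 13.2%. DESeq2 called 0 genes with Cet and 1 with Afa, and 1 was called with Afa without replicate 2. The Afa effect differed between 24 h and 4 h for 3 genes in MKN1, beside 2.77% of all genes, and for 12 with the block. EGF+Cet against EGF gave 0 calls by edgeR at either time, beside 0.701% of all genes at 4 h and 0.646% at 24 h. Unadjusted p was below 0.05 for 5 genes at 4 h and 3 at 24 h, DESeq2 called 1 gene at each time, and the block called 4 (beside 3.99%) and 6 (beside 7.22%). NPC1 at 4 h, with 103, 86.8 and 112 CPM under EGF+Cet, had the largest decrease from EGF (log2 -0.36 ± 0.10, edgeR adjusted p = 0.1).

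**Figure D5:**
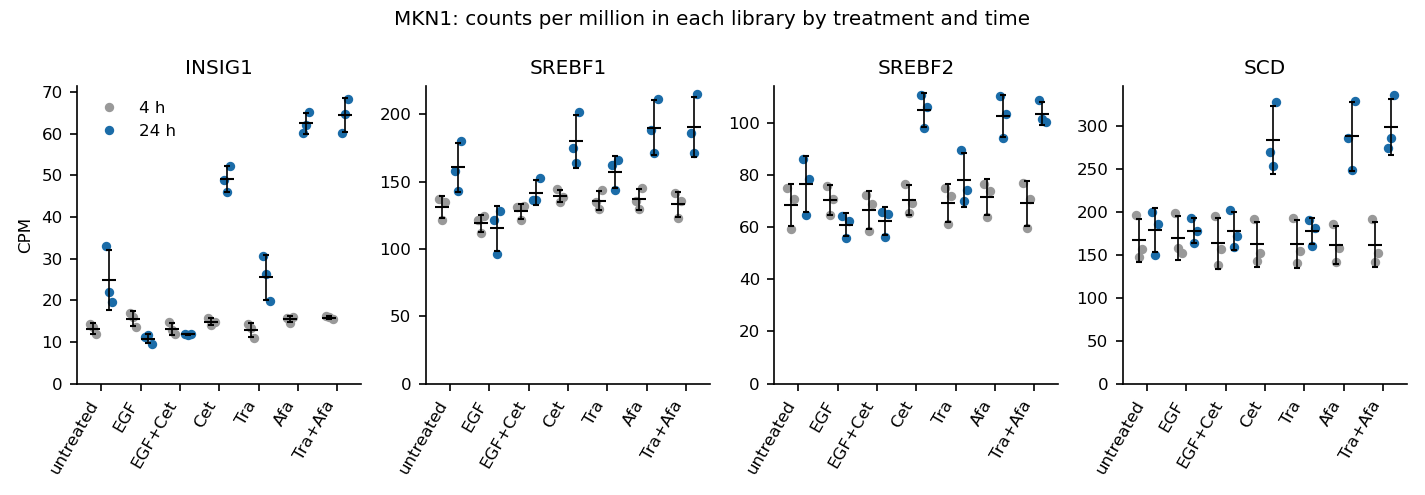
CPM of INSIG1, SREBF1, SREBF2 and SCD in each MKN1 library, for 7 treatments at 4 h and 24 h. Points are single libraries, 3 per condition, and bars give the mean ± SD. At 24 h INSIG1 lies below the untreated libraries with EGF and EGF+Cet and above them with Cet, Afa and Tra+Afa.

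Hs746T carries an altered MET receptor and was included as a line that does not respond to Cet or Afa. There, 0 of 31 genes were called by edgeR under any treatment at either time, beside 0% of all genes with Afa at 24 h and 0% at 4 h. Without adjustment, p fell below 0.05 for 1 gene with Afa at 24 h and for 3 at 4 h, and DESeq2 called 0 with Afa at either time. INSIG1 was at 66.9, 82.8 and 84.3 CPM untreated and 64.3, 78.95 and 86.99 with Afa at 24 h, overlapping groups, and SCD at 300.5, 459.9 and 406 and 280.2, 428 and 395 CPM. The log2 values with Afa at 24 h ran from -0.22 (HSD17B7) to 0.22 (PMVK), with a median SE of 0.144. With the block, 8 genes were called higher and 2 lower with Afa at 4 h, beside 18.6% of all genes, and 5 genes with Tra+Afa at 4 h, beside 1.67%. The values with Afa at 4 h ran from -0.48 (ABCA1) to 0.32 (INSIG1).

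Levels also differed between 4 h and 24 h in cells that received nothing, and each treated group was compared with untreated cells of its own time. In MKN1, 4 genes were higher and 7 lower at 24 h, beside 34.1% of all genes, but 12 were higher and 2 lower with library size alone, at a shift of 0.17 at the median gene. With the block 11 were higher and 10 lower. INSIG1 was higher at 24 h (log2 0.89 ± 0.13, edgeR adjusted p = 3.60e-06), and IDI1 (log2 -0.64), FASN (log2 -0.61) and SQLE (log2 -0.57) were lower. In MKN7, 10 were higher and 3 lower, beside 16.4%, but only 1 and 1 without replicate 1. HSD17B7 (log2 0.71) and MSMO1 (log2 0.54) were higher and ABCA1 (log2 -0.88) lower. In N87, 0 were called by edgeR (8 at an unadjusted p below 0.05, 2 with the block), beside 0.267%. In Hs746T, INSIG2 was called (log2 0.32 ± 0.08), as 1 of 31 genes beside 1.48%, and 6 were called with the block.

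Among 41 further genes of lipid metabolism, listed by function, 10 rose and 18 fell of 38 tested in N87 with Afa at 24 h (beside 62.5% of all genes called), 13 rose and 12 fell of 37 in MKN7 (beside 51.6%), and 10 rose and 2 fell of 38 in MKN1 (beside 25.6%). Those changed by more than 1 on the log2 scale in N87 included PDK4, a kinase that turns cells from glucose to fatty acid oxidation (log2 2.50), the sterol-regulated TMEM97 (log2 -1.32), the malic enzyme ME1, which supplies NADPH for lipid synthesis (log2 -1.02), and SOAT1, which esterifies cholesterol (log2 -1.01). PDK4 also rose with Afa (log2 1.06) and fell with EGF (log2 -1.24) in MKN1, and at 4 h it rose in N87 (log2 2.32) and MKN7 (log2 1.69). PDK4 thus rose in N87 at 24 h, when the 5 genes of fatty acid synthesis were lower. Of the 8 listed genes of fatty acid oxidation, PDK4 among them, 4 rose and 3 fell there, so PDK4 does not stand for that list.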

How the data were processed

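Poly(A) RNA libraries (strand-specific kit, paired-end reads) were trimmed with Trim Galore and aligned to hg38 with STAR by the authors, per the submitters' processing notes, and raw counts per Ensembl gene were deposited for each library. The tool, annotation and strand setting of the counting are not given in the sources used here, so reads of overlapping genes may have been assigned or dropped. Symbols and exon lengths came from GENCODE v29. The 8404 identifiers not in it held 0.0422% of all counts. Groups followed the labels of cell line, treatment and time.

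Each line was fitted with edgeR 4.0.16 (R 4.3.3, TMM scaling, genes kept by filterByExpr at 10 counts per library and 15 in total, quasi-likelihood test, 1 mean per group, Benjamini-Hochberg adjustment over all genes tested). Comparisons between lines came from 1 fit over all libraries, and CPM used its TMM scaling. Calls needed an adjusted p below 0.05. DESeq2 1.42.0, library-size scaling, other filters, the 2 groups alone, a replicate block and leaving out each replicate were tried as alternatives. The scripts were tested on simulated data. The block was warranted because same-numbered libraries deviated together, with every same-number correlation at least 0.108 in 47 of the 48 comparisons of treatments within a line and time. In the other, Tra+Afa against Afa in MKN1 at 24 h, the lowest was 0.0952. Over the same-numbered pairs of all treatments, 56 of 63 in MKN1 at 24 h were over 0.1, with a lowest value of -0.0276. In every other line and time all such pairs were over 0.1. The labels do not say what a number shares. No pair of the 132 replicate pairs was identical, and the closest had 6.39 times the variance of counting noise.

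All 33 genes are named. Of the further lipid genes only those past an absolute log2 fold change of 1 are named, at most 6 per comparison. Per-library values are given for SREBF1, SREBF2, INSIG1 and the most changed genes. The genes, chosen by function, and the lists and tests were chosen with earlier results of these data known. Certain genes of the pathway and of the further lipid genes are not reported here.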

Additional observations from a re-analysis of the deposited data

Results flagged for a closer look

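The effect of Afa differed between 24 h and 4 h, by a test of the difference itself (edgeR's quasi-likelihood test, Benjamini-Hochberg adjusted), for 25 of these genes in N87, 9 in MKN7 and 3 in MKN1, and in MKN1 for 12 and in MKN7 for 14 with the replicate block. Of all genes, 35.8%, 18% and 2.77% were called in N87, MKN7 and MKN1 without the block. In N87, 22 of the 25 were lower at 24 h, and without replicate 1 the 3 lines together gave 21 such genes.

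Between lines at 24 h, the effect of Afa differed for 25 genes in MKN1 against N87 (28% of all genes), 19 in MKN7 against N87 (21.4%), 5 in MKN1 against MKN7 (7.61%), and, against Hs746T, for 20 in N87 (35.1%), 7 in MKN7 (18.8%) and 4 in MKN1 (4.41%). With the replicate block the 3 smallest counts, whose shares above are without the block, became 13 (MKN1 against MKN7), 16 (MKN7 against Hs746T) and 13 (MKN1 against Hs746T). Part of these genes were called in opposite directions in the lines compared. In MKN7 they rose and in N87 they fell for HMGCS1 (difference on the log2 scale 1.71), MSMO1 (1.47), FDFT1 (0.75), MVD (0.72) and SREBF2 (0.60). In MKN1 they rose and in N87 they fell for SCD (2.88), MSMO1 (1.35), MVK (1.11), INSIG2 (0.73) and SREBF2 (0.58), and INSIG2 rose in MKN1 and fell in MKN7 (0.88). The opposite direction of SREBF2 rests on a small decrease in N87 that did not keep its sign with library-size scaling. In MKN1 the calls of MVK and INSIG2 were lost without any 1 of the 3 replicates, and those of SCD and SREBF2 without replicate 3. In MKN7 FDFT1 lost its call without replicate 1 or 3 and INSIG2 without replicate 3, and in N87 MVD without replicate 2. The calls of HMGCS1 and MSMO1 listed here were kept. The summed level of the proliferation genes was lower with Afa in MKN1, MKN7 and N87, most in N87, and overlapped untreated libraries in Hs746T. Whether this bears on the differences was not tested.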

How the results depend on the processing

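With the replicate number as a block, the share of all genes called also grew wherever it is given. All 88 calls of single genes were kept and the count of changed genes grew in most comparisons. It went to 8 (MKN1, Afa, 4 h), 19 (MKN1, Afa, 24 h), 15 (MKN7, Afa, 4 h), 18 (N87, Afa, 4 h), 10 (Hs746T, Afa, 4 h), 10 and 17 (MKN1, EGF, 4 h and 24 h), 3 and 15 (MKN1, Cet, 4 h and 24 h), 4 and 6 (EGF+Cet against EGF, 4 h and 24 h), 133 over the other treatment comparisons, 44 over untreated 24 h against 4 h and 124 over the comparisons of Afa effects between lines. For the counts pooled over several comparisons no share of all genes with the block is given, so they cannot be set against a background. Scaling to library size alone gave 1 call with Afa at 4 h and 14 at 24 h, 3 with EGF at 4 h and 9 with Cet at 24 h, all in MKN1, and turned SREBF2 in N87 with Afa at 24 h to 0.072. The 17 other single calls that it cost, of 88, kept their direction. DESeq2 gave 1 call for Afa at 4 h in MKN1 and 1 for EGF+Cet against EGF at each time. For EGF at 4 h, testing without a filter and testing the 2 groups alone gave 2 calls each, and for EGF+Cet against EGF at 24 h a minimum of 10 counts in every library gave 1. Requiring an absolute log2 fold change above 1 left 12 genes in N87 and 2 in MKN7 at 24 h, 1 in N87 and 0 in MKN7 at 4 h, and in MKN1 1 each with Afa and EGF at 24 h and 0 with Cet at 24 h or EGF at 4 h.

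Leaving out 1 replicate at a time gave 0 to 1 calls in MKN1 with Afa at 4 h, 4 to 7 at 24 h, 7 to 10 in MKN7 at 4 h, 11 to 15 at 24 h, 1 to 5 in N87 at 4 h, 21 to 26 at 24 h, 0 to 4 with EGF at 4 h, 7 to 10 at 24 h and 1 to 6 with Cet at 24 h. It gave 13 to 18 over untreated 24 h against 4 h, 53 to 79 over the differences between lines and 21 to 27 over those between 24 h and 4 h. Fewer samples enter these fits. With 3 replicates, changes well above the SE of about 0.1 on the log2 scale could be missed. In MKN1 with Afa at 4 h, IDI1 at -0.45 ± 0.14 (SE, edgeR adjusted p = 0.0697) was not called. ABCG1 in N87 and MKN7 rests on few counts. The causes of the other shifts were not tested.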
